A study of Mus musculus with 1298 samples.

Results

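*Prdm16* and a set of regulators known to work with it or against it were followed through the Pax7 lineage of the mouse embryo. The genes were *Prdm16*, *Ehmt1*, *Zfp423*, *Zfp521*, *Zfp516*, *Ctbp1*, *Ctbp2*, *Med1*, *Nfia* and *Tle3*. They were chosen by name and not by a rule on measured values, but with earlier results of these data known. All 10 had a row in each table, among 17634 genes in the 10x table, 22894 in the Smart-seq2 (ss2) table and 22938 in the bulk table.

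The cells came from *Pax7*CreER:R26R-stop-EYFP embryos given tamoxifen at E9.5, in which descendants of *Pax7*-expressing cells carry YFP. Every library, controls included, held this genotype and treatment, and head, limbs and viscera had been removed, so that YFP+ cells of the trunk were profiled without an untreated or unlabelled group. Single YFP+ cells taken at E12.5, at E14.5 or at E16.5 were profiled on both platforms, from embryos pooled per day. The 18 bulk libraries comprised Pdgfra+/Thy1- and Pdgfra+/Thy1+ cells sorted at E14.5 and grown as triplicates in adipogenic differentiation medium (ADM) or DMEM, and cells sorted at E16.5 and sequenced without culture, namely Pdgfra+/Thy1-, Pdgfra+/Thy1+ and Cd36+ cells in duplicate. The culture replicates were separate wells and the sorted duplicates technical ones, all from pooled embryos. Therefore n counts libraries, and p-values do not measure the spread between embryos. The day of the sorted cells is that of the sample labels, and sources differ for the uncultured Pdgfra+/Thy1- cells, which the publication also describes as taken at E14.5. The column names of the bulk table do not give the Thy1 sign, so both Thy1 sorts could not be told apart by label. Each medium therefore held 6 libraries and the sorted Pdgfra+ cells 4, with both Thy1 sorts in each, against 2 Cd36+ libraries. The spread behind the bulk p-values is thus technical spread together with the difference between the Thy1 sorts.

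Brown adipocytes burn fuel for heat, and they share dermomyotomal ancestry with skeletal muscle and dorsal dermis. Prdm16 is a zinc finger coregulator that favours the brown fat program and holds down muscle and white fat genes. It works through partners: Ehmt1 is a histone lysine methyltransferase, Ctbp1 and Ctbp2 are corepressors that it uses at white fat genes, and Med1 is the Mediator subunit through which it contacts the transcription machinery at brown fat genes. Zfp516 is a cold-responsive activator of *Ucp1*, whereas Zfp423 maintains white adipocyte identity by restraining Ebf2, and its relative Zfp521 holds back adipogenesis. Nfia belongs to the nuclear factor I (NFI) family and helps open brown fat enhancers, and the corepressor Tle3 competes with Prdm16.

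*Prdm16* lies on chromosome 4 from 154316125 to 154636873 on the minus strand, *Nfia* on chromosome 4 from 97772734 to 98118874 on the plus strand, and *Tle3* on chromosome 9 from 61372366 to 61418497 on the plus strand (GRCm38). The 250 bases before the start of *Prdm16* (chr4:154636874-154637123, minus strand) and *Tle3* (chr9:61372116-61372365, plus strand) are shown because these were the 2 members with the lowest adjusted p-values for a higher level in sorted Cd36+ cells. They were read from RefSeq on GRCm38.p6. Capitals mark TTGGC, the core letters bound by NFI factors such as Nfia, on either strand.
Prdm16: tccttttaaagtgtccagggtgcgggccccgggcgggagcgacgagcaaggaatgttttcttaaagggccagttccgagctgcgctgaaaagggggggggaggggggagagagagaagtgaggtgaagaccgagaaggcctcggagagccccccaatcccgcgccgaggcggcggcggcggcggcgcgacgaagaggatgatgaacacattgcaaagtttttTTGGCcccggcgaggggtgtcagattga
Tle3: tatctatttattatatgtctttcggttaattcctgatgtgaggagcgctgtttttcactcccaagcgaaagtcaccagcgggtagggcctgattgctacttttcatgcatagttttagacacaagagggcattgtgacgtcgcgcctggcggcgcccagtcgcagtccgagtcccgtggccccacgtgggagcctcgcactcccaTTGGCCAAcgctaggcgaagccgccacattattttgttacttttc
The *Prdm16* window held 1 copy and the *Tle3* window 2 overlapping copies on opposite strands. TTGGC was present in 41.5% of all 32817 promoter windows of this length, so its presence is common. The full palindrome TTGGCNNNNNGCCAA, present in 0.0366% of windows, was in neither. Promoter windows were available for 8 of the 10 members. Windows of *Ctbp1* and *Med1* each held 1 TTGGC, the windows of *Ehmt1* and *Nfia* held none, 1 of the 2 *Ctbp2* starts held 1, and the 2 *Zfp423* starts held 0 and 3. Not all windows lie at the gene ends of the annotation. The *Nfia* window begins at chr4:97581693, well before the start given above. Both *Ctbp2* windows, the *Med1* window and the *Zfp423* window with 3 copies lie inside the annotated gene.

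Of 3916 deposited cells, 3852 passed the limits, with a median of 1607.5 to 5930 UMIs per cell in the 10x pools and 393416 to 829590 estimated counts in the ss2 pools. Bulk libraries held 3390851 to 35332908 counts. Only 3 10x barcodes occurred in more than 1 library. Cells were clustered without the members, their partners and their paralogs, and clusters were named from markers: brown adipocyte (BA)-like cells made 4.52% of the cells kept, dermal fibroblast (DF)-like 15.6%, late progenitor (LP)-like 19%, early myogenic (EM)-like 18% and late myogenic (LM)-like 6.18%. A mesenchymal cluster with 10.5% of the cells, almost all of E12.5, is called cluster 1, because its leading genes included *Lef1* of the dermal list and none of the early progenitor list. The *Pax7*-driven Cre also marks neural cells, and neuron-like cells made 18.3%. The BA-like cluster expressed 9 of 9 markers and led with *Car3*, *Gpd1* and *Adipoq*. In the bulk libraries *Cd36* read 1510 and 1262 CPM (counts scaled to a common library total) in sorted Cd36+ cells against 51.6 to 280.98 in sorted Pdgfra+ cells, and *Pdgfra* 6.03 and 8.41 CPM against 271.8 to 487.6, as the sort labels state.

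*Prdm16* was the member that separated sorted Cd36+ from sorted Pdgfra+ cells most strongly upward, and *Zfp521* the one that separated them most strongly downward. After TMM scaling, *Prdm16* measured 39.7 and 46.9 CPM in the Cd36+ libraries and 2.48, 3.16, 1.86 and 3.43 CPM in the Pdgfra+ libraries. The groups did not overlap, and *Prdm16* rose by 3.98 ± 0.60 (SE) on the log2 scale, or 15.8-fold (edgeR quasi-likelihood test, adjusted p = 0.0002135). It kept this call in 11 of 11 alternative settings. *Zfp521* measured 1.31 and 0.904 CPM in Cd36+ cells and 25.8, 31.05, 25.9 and 28.96 CPM in Pdgfra+ cells. It fell by 4.66 ± 1.04 on the log2 scale (edgeR, adjusted p = 0.0033), and without the second Cd36+ library the difference was -4.47 with an adjusted p of 0.0564.

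**Figure D1:**
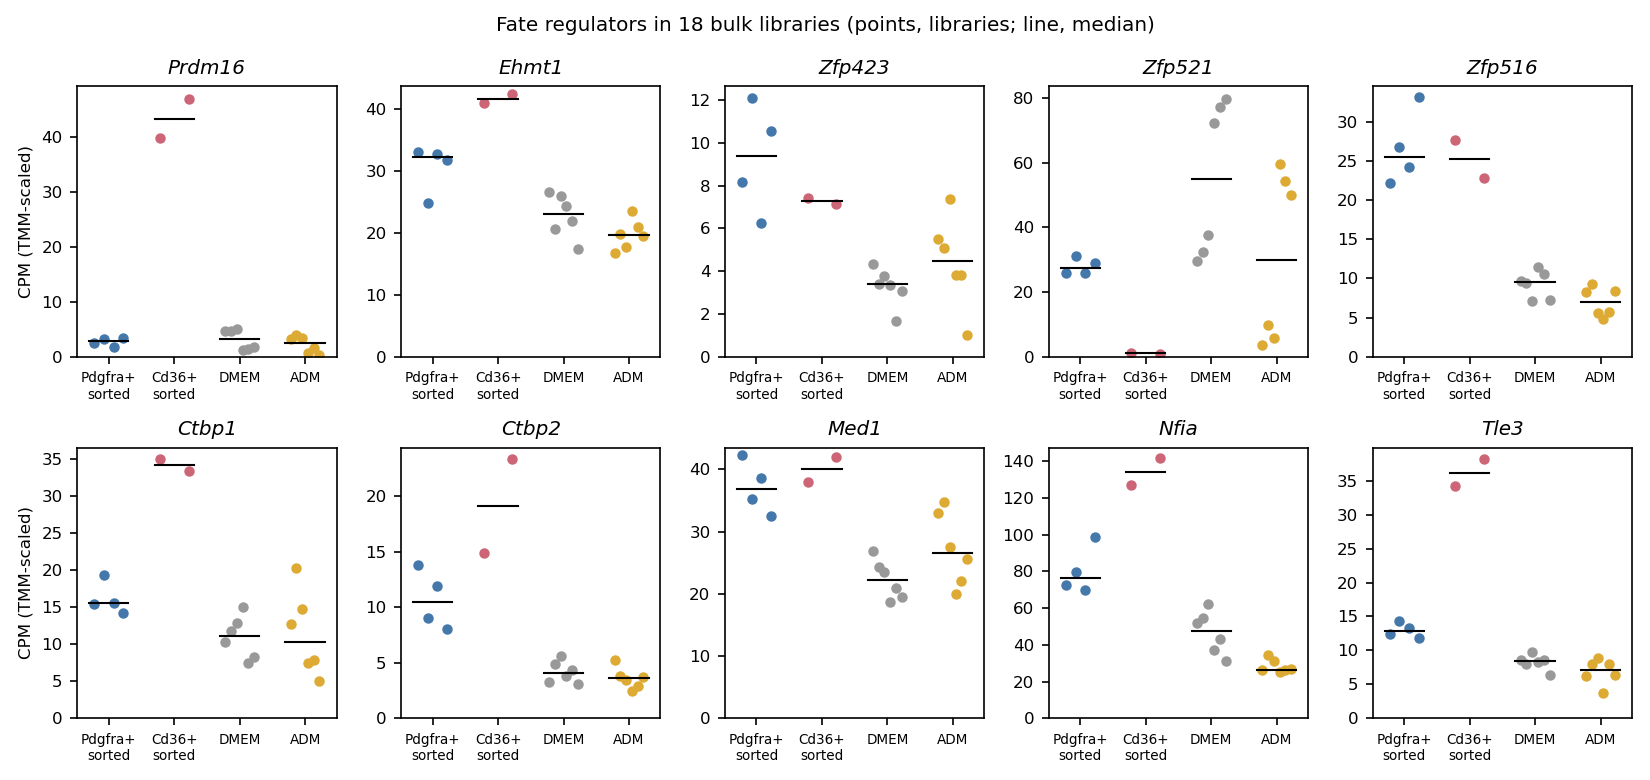
TMM-scaled CPM (linear axes that start at 0) of the 10 members, with 1 point per bulk library, grouped as sorted Pdgfra+ (n = 4), sorted Cd36+ (n = 2), DMEM (n = 6) and ADM (n = 6), and a line at each group's median. *Prdm16* sits at 39.7 and 46.9 CPM in sorted Cd36+ cells and at or below 4.99 CPM in every other library, and *Zfp521* shows the opposite order against sorted Pdgfra+ cells.

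Among the corepressors, *Tle3* measured 34.2 and 38.2 CPM in Cd36+ cells and 12.4, 14.4, 13.3 and 11.8 CPM in Pdgfra+ cells. All Cd36+ values lay above all Pdgfra+ values, and *Tle3* rose by 1.48 ± 0.25 on the log2 scale, or 2.79-fold (edgeR, adjusted p = 0.000413). This call too was kept in 11 of 11 alternatives. *Ctbp1* measured 35.1 and 33.4 against 15.4, 19.4, 15.6 and 14.2 CPM and rose by 1.09 ± 0.38 (adjusted p = 0.0372). *Ctbp2* measured 14.8 and 23.3 against 13.8, 9.00, 11.9 and 8.01 CPM and rose by 0.84 ± 0.30 (adjusted p = 0.0412), with its lower Cd36+ library close to the highest Pdgfra+ library. *Nfia* measured 126.99 and 141.6 against 72.5, 79.6, 70.03 and 98.7 CPM and rose by 0.74 ± 0.25 (adjusted p = 0.0315). The calls of *Ctbp1*, *Ctbp2* and *Nfia* stood in 3 of 11 alternatives each. Under RLE scaling their adjusted p-values were 0.0615, 0.0708 and 0.0596, and without the second Cd36+ library the *Ctbp2* difference was 0.42.

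The other members differed less. *Ehmt1* measured 40.996 and 42.5 CPM in Cd36+ cells and 33.1, 24.8, 32.7 and 31.8 CPM in Pdgfra+ cells, without overlap, yet its log2 difference of 0.45 ± 0.20 did not pass (adjusted p = 0.0966). *Med1*, *Zfp423* and *Zfp516* gave differences of 0.11 ± 0.23, -0.35 ± 0.44 and -0.08 ± 0.27. Of the 10 members, 5 rose and 1 fell, where 13.8% of all 17586 genes tested rose and 18% fell (31.8% in either direction). Groups did not overlap for 7 of 10 members, 6 of them higher, and for 59.9% of all genes (30.2% higher, 29.7% lower). The median log2 difference was 0.59 over the members and -0.05 over all genes.

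Several genes of the same network were measured alongside. Of 12 further Prdm16 partners, 3 rose and 2 fell. *Irf4*, a transcription factor of thermogenic fat that cooperates with Prdm16, measured 35.4 and 24.3 CPM in Cd36+ cells and 0.913 to 2.23 CPM in Pdgfra+ cells, and rose by 4.40 ± 0.86 on the log2 scale. *Cebpb*, which acts with Prdm16 in the myoblast to brown fat switch, measured 9.84 and 11.4 against 0.581 to 1.19 CPM and rose by 3.48 ± 0.96. Among 8 paralogs of the members 1 rose and 1 fell. *Mecom*, the closest relative of *Prdm16*, measured 17.5 and 18.2 against 0.457 to 3.12 CPM and rose by 3.39 ± 0.79, whereas *Tle2*, a relative of *Tle3*, measured 0.363 and 0.887 against 8.56 to 12.0 CPM and fell by 4.09 ± 0.51. Of 16 brown-selective genes 8 rose, including *Dio2* at 7.11 ± 0.94 on the log2 scale and *Ucp1* at 6.46 ± 2.39, and none fell. Of 7 white-selective genes tested only *Igfbp3* passed, lower by -4.88 ± 0.95, and of 14 muscle genes 7 fell and none rose, including *Myod1* at -3.87 ± 1.40 and *Myf5* at -3.62 ± 1.00.

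Other cells moved with this comparison. The summed level of the 9 BA markers was 28410 to 30714 CPM in Cd36+ and 135.3 to 942 CPM in Pdgfra+ libraries, and that of 5 endothelial markers, a cell type that also carries Cd36, was 90.7 to 114.7 against 43.4 to 48.5 CPM. The 9 LP markers summed to 460.9 to 623 CPM in Cd36+ and 28689 to 32507 CPM in Pdgfra+ libraries, and the 16 muscle markers to 32.1 to 42.4 against 83.6 to 191.2 CPM. Mitochondrial genes took 15.9% to 20.8% of Cd36+ counts and 3.48% to 4.35% of Pdgfra+ counts. Their part in the members' differences was not tested. In bulk samples fewer cells of a type and less RNA per cell cannot be told apart.

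Single cells at E16.5 gave *Prdm16* at a higher and *Zfp521* at a lower level in BA-like cells than in LP-like cells. In the 10x pool *Prdm16* had 27 UMIs in the BA-like cells (16.8% of 940 cells), spread over 26 cells, or 53.6 CPM (exact Poisson interval 35.3 to 77.9, counting error only). It had 0 UMIs in LP-like cells (25% of the pool), where the limit of 3 counts corresponds to 7.94 CPM, and the ratio was at least 5.12 by its exact interval, or 6.75 against that limit over the summed pool. In DF-like cells (33.2%) it had 2 UMIs, for a BA to DF ratio of 12.2 with an interval of 3.07 to 105.9. For *Zfp521* the BA-like sum held 0 UMIs and the LP-like sum 6, for a ratio of at most 0.637 by its exact interval. With 1 10x library per day these ratios carry no replicate error.

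**Figure D2:**
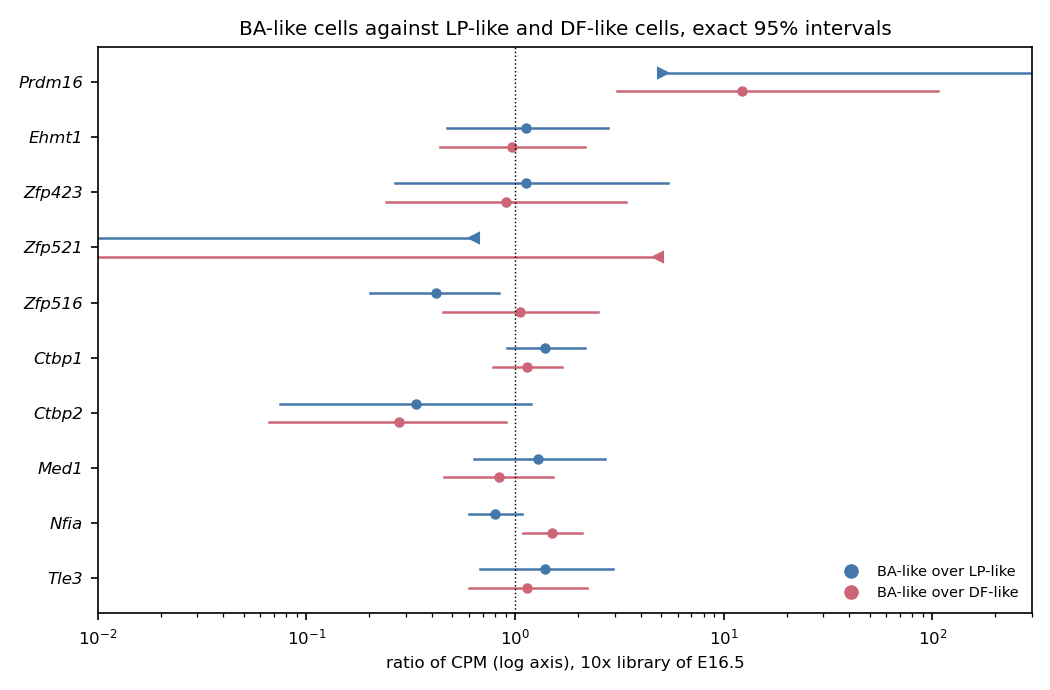
Ratio of the level in BA-like cells to that in LP-like and DF-like cells of the 10x E16.5 pool (log axis) for each member, with 95% exact intervals that cover counting error only and triangles where a sum held 0 UMIs and only a bound is given. *Prdm16* lies above 1 against both classes, its ratio to LP-like cells having a lower bound only, and *Zfp521* lies below 1 against LP-like cells.

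The limit on mitochondrial counts removed many ss2 BA-like cells, leaving 14 of 60. With all deposited cells the 60 ss2 BA-like cells gave *Prdm16* at 72.5 CPM, against 5.25 in DF-like and 1.44 in LP-like cells. Counts lay in 53 of the 60 BA-like cells, with 11.0% of the sum in the largest. *Zfp521* was at 1.91 CPM in BA-like, 35.98 in DF-like and 66.5 in LP-like cells, and 41.1% of the LP-like sum came from 1 cell. Both platforms were then fitted together at E16.5 without the mitochondrial limit, a comparison added after the data were seen that rests on 6 sums and 2 residual degrees of freedom, with the spread borrowed across genes.

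In that fit *Prdm16* was higher in BA-like than in LP-like cells by 6.08 ± 0.57 on the log2 scale (edgeR, adjusted p = 2.71e-25) and higher than in DF-like cells by 4.07 ± 0.50 (adjusted p = 4.88e-15). *Zfp521* was lower by -4.79 ± 0.58 (adjusted p = 2.5e-15) and by -3.85 ± 0.56 (adjusted p = 7.76e-11). Against LP-like cells *Zfp423* fell by 1.49 ± 0.56 (adjusted p = 0.018), *Med1* rose by 0.90 ± 0.35 (adjusted p = 0.0207) and *Tle3* rose by 0.95 ± 0.41 (adjusted p = 0.0408). These last 3 calls were lost with DESeq2, at adjusted p-values of 0.176, 0.210 and 0.180. *Zfp423* was lower only by ss2, at 5.17 CPM in BA-like against 26.99 in LP-like cells. By 10x it read 11.4 against 10.7 CPM, from 6 and 4 UMIs. Against DF-like cells *Nfia* rose by 0.74 ± 0.30 (adjusted p = 0.0323). Of all 13442 genes, 49.9% passed against LP-like cells (25.7% higher, 24.1% lower) and 45% against DF-like cells (22.8% higher, 22.2% lower), and the members' counts of 5 and 3 of 10 are near or below that share. Both comparisons share the BA-like sums.

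The remaining members showed smaller ratios or differed between platforms. In the 10x pool *Zfp516* had a BA to LP ratio of 0.420 (interval 0.202 to 0.839), and in the joint fit its difference did not pass (adjusted p = 0.0646). By 10x *Ctbp2* read 7.94 CPM in BA-like cells against 23.8 in LP-like cells, but by ss2 it read 13.98 against 6.07 CPM, opposite orders on the 2 platforms. *Nfia* read 204.3 CPM in BA-like, 254.1 in LP-like and 136.1 in DF-like cells by 10x. Its BA to LP interval of 0.603 to 1.07 includes 1, and its BA to DF ratio was 1.501 with an interval of 1.09 to 2.09. *Ehmt1*, *Ctbp1* and *Med1* had BA to LP ratios of 1.12, 1.40 and 1.29 with intervals that include 1.

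Among the partners, 5 of 12 rose and 2 fell in BA-like against LP-like cells. The BA-like sum held 11 *Irf4* UMIs and the LP-like sum 0, for a ratio of at least 1.88 by its exact interval. *Cebpb* had a BA to LP ratio of 4.52 (interval 3.06 to 6.90) and *Hdac1*, a histone deacetylase, 2.73 (interval 1.82 to 4.21). Of the 8 paralogs 1 rose and 3 fell. Among the NFI relatives *Nfib* had a ratio of 0.434 and fell by 1.01 on the log2 scale in the joint fit, and *Nfix* had 0.509 and fell by 1.95. *Nfic* had a ratio of 1.46 with an interval of 0.832 to 2.65 and did not pass.

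Across classes and days *Prdm16* was not limited to BA-like cells. In the ss2 sums at E12.5 it read 75.7 CPM in cluster 1 and 72.3 CPM in EM-like cells, levels close to the 69.3 CPM of the 14 BA-like cells at E16.5. In the 10x sums the same classes read 7.80 CPM (interval 2.13 to 19.97), 17.1 CPM (7.40 to 33.8) and 53.6 CPM. The platforms thus gave different orders, and levels are comparable only within a platform. In ss2, counts lay in 50 of 120 cluster 1 cells and 22 of 49 EM-like cells. In the 14 BA-like cells 53.02% of the sum came from 1 cell, a concentration that the 60 cells without the mitochondrial limit did not share.

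**Figure D3:**
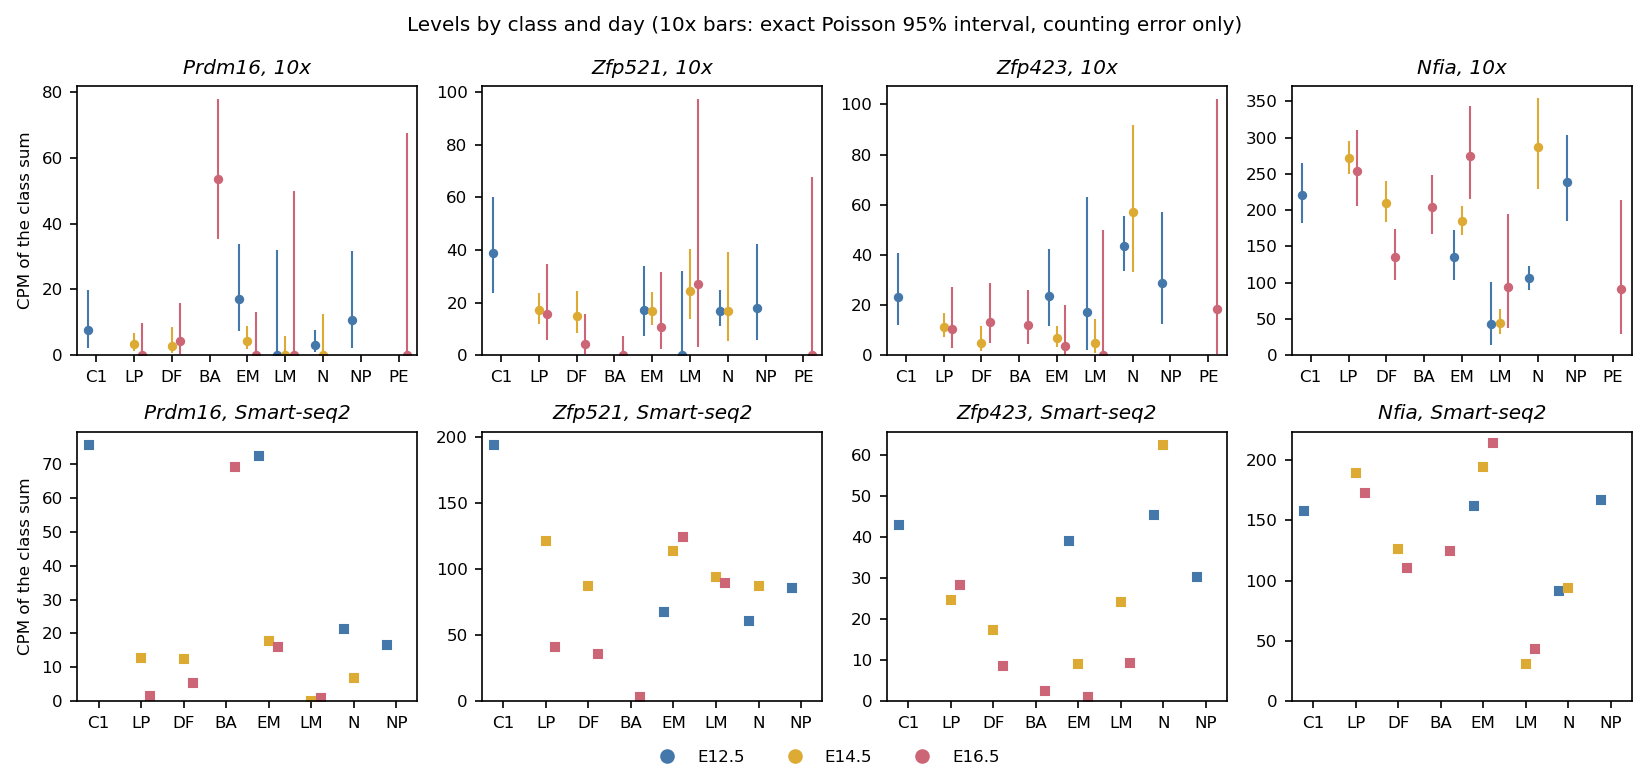
CPM of *Prdm16*, *Zfp521*, *Zfp423* and *Nfia* in the class sums by day, on 10x and ss2, with 1 point per class and pool of at least 20 cells, or fewer for BA-like cells in ss2, and exact counting intervals on 10x. C1 is cluster 1, N neuron-like, NP neural progenitor-like and PE pericyte-like cells. *Prdm16* in ss2 is at 69.3 to 75.7 CPM in cluster 1, EM-like cells of E12.5 and BA-like cells and at or below 21.3 CPM elsewhere, and *Nfia* in ss2 is lowest in LM-like cells.

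The EM-like cells, which express *Myf5* and *Myod1*, were present on all 3 days, in different clusters. Cluster 2 held 98.2% of them at E12.5 and 94.2% at E16.5 by 10x and 91.8% at E12.5 by ss2, and cluster 3 held 99.1% at E14.5 by 10x and 94.4% and 100% at E14.5 and E16.5 by ss2. Their *Prdm16* level by day, from the earliest to the latest, was 72.3, 17.7 and 16.1 CPM by ss2, and 17.1, 4.49 and 0 CPM by 10x, where 0 at E16.5 allows up to 10.8 CPM. From E12.5 to E16.5 *Prdm16* fell by 2.01 ± 0.64 on the log2 scale (edgeR, adjusted p = 0.0211). *Zfp423* read 39.1, 9.06 and 0.915 CPM by ss2 and 23.6, 6.73 and 3.60 CPM by 10x, and fell by 4.76 ± 0.90 (adjusted p = 8.31e-06). On ss2 both were lower on each later day. On 10x the 0 and 1 UMIs at E16.5 have intervals that reach 13.3 and 20.1 CPM and include the E14.5 levels, so no order between these days was detectable at this depth. *Nfia* read 161.7, 194.02 and 214.04 CPM by ss2 and 135.03, 184.5 and 273.9 CPM by 10x, a difference of 1.00 ± 0.39 that did not pass (adjusted p = 0.0779). Of the members 0 rose and 2 fell, where 5.45% of 12496 genes rose and 4.89% fell (10.3% in all).

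These calls rest on 6 sums with 2 residual degrees of freedom. The spread was borrowed across genes, so the p-values do not rest on the spread of these sums for each gene alone. Without the ss2 E12.5 pool the difference of *Prdm16* was -2.27 ± 1.34 (adjusted p = 0.875) and that of *Zfp423* -4.04 ± 1.57 (adjusted p = 0.399). Without the ss2 E16.5 pool, where 10x alone gives the later day, they were -11.9 ± 4.91 (adjusted p = 0.307) and -2.59 ± 1.42 (adjusted p = 0.614), so the sizes rest on single pools. The adjusted p of *Prdm16* was also 0.0841 without the 10x E12.5 pool and 0.0838 with DESeq2. Among the paralogs *Nfic*, *Nfix* and *Nfib* rose by 3.82, 3.32 and 1.204 on the log2 scale and *Mecom* fell by 6.04. Of 11 partners tested only *Eya1*, a coactivator that acts in myogenesis, passed, and it fell by 2.41.

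From EM-like to LM-like cells, which express *Myog*, *Nfia* showed the clearest difference. *Nfia* read 43.5, 44.1 and 94.5 CPM in LM-like cells and 135.03, 184.5 and 273.9 CPM in EM-like cells by 10x, and 31.1 and 43.4 against 194.02 and 214.04 CPM by ss2 at E14.5 and E16.5. Every LM-like sum lay below every EM-like sum. *Nfia* fell by 2.06 ± 0.20 on the log2 scale (edgeR, adjusted p = 6.62e-08) and kept this call in 14 of 14 alternatives, between -2.34 and -1.75. *Ctbp2* read 6.22 and 7.40 against 32.7 and 13.6 CPM by ss2 and fell by 1.24 ± 0.42 (adjusted p = 0.032), a call lost in 5 of 14 alternatives. Among its relatives *Nfib* fell by 2.30 and *Nfic* by 1.55, and *Tle1* rose by 1.103. Of 9 members tested 0 rose and 2 fell, where 12.7% of 8085 genes rose and 13.4% fell (26.1% in all).

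*Prdm16* did not reach the count filter in this comparison and has no test. LM-like cells held 0 *Prdm16* UMIs on each of the 3 days by 10x, where the limits of 3 counts lie at 26.1, 4.89 and 40.5 CPM from E12.5 to E16.5. Each limit is above the 10x level of EM-like cells on the same day (17.1, 4.49 and 0 CPM), so no difference was detectable on 10x. By ss2 LM-like cells held 1 and 21 counts at E14.5 and E16.5, or 0.0284 and 0.864 CPM, and EM-like cells read 17.7 and 16.1 CPM. *Zfp521*, in contrast to its level in BA-like cells, was present in both myogenic classes, at 94.1 and 89.3 CPM in LM-like and 113.7 and 124.2 CPM in EM-like cells by ss2. *Zfp423* differed by 1.41 ± 0.70 and did not pass (adjusted p = 0.153).

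Against the mesenchymal cells of the same pools, cluster 1 at E12.5 and LP-like cells later, EM-like cells differed in 1 member. Cluster 1 and the LP-like cells are together called progenitors below, a short name that the leading genes of cluster 1 do not bear out. *Tle3* was lower by -0.62 ± 0.20 on the log2 scale (edgeR, adjusted p = 0.045), and this call stood in 3 of 15 alternatives. *Prdm16* differed by 1.07 ± 0.52 (adjusted p = 0.162), *Zfp423* by -1.33 ± 0.67 (adjusted p = 0.170) and *Ctbp2* by 0.57 ± 0.23 (adjusted p = 0.0936). The background was 26.9% of 12107 genes, 11.3% higher and 15.7% lower. All of the 4 paralogs that passed were lower in EM-like cells, with *Mecom* at -3.58, *Tle2* at -2.04, *Nfix* at -1.34 and *Nfib* at -0.55. Of 11 partners 2 rose and 3 fell, among them *Eya1* at 1.90 and *Hdac9*, which restrains adipogenic differentiation, at -3.08.

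Between LP-like cells and cluster 1 no member passed the test of edgeR, where 5.7% of 14040 genes did (4.79% higher and 0.912% lower). *Prdm16* came nearest. It read 3.33 and 0 CPM in LP-like cells at E14.5 and E16.5 by 10x and 12.7 and 1.52 by ss2, against 7.80 and 75.7 CPM in cluster 1, a difference of -2.61 ± 0.82 (adjusted p = 0.0896) that passed in 3 of 13 alternatives. Class and day go together here and cannot be told apart. *Tle3* and *Nfia* differed by -0.88 ± 0.46 and 0.64 ± 0.34. No partner of 11 and 1 paralog of 8 passed, *Nfix*, which rose by 3.14.

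In DF-like against LP-like cells at E14.5 and E16.5 *Nfia* was the member that passed with edgeR. By 10x both classes changed clusters between days. Cluster 10 held 77.1% of the DF-like cells at E14.5 and cluster 5 78.2% at E16.5, and cluster 4 held 69.1% and cluster 6 95.7% of the LP-like cells. By ss2 the DF-like cells changed likewise, with 63.3% in cluster 10 and then 58.7% in cluster 5. The ss2 LP-like cells lay mostly in cluster 4 at E14.5 (80%). At E16.5 cluster 4 was still their largest, with 40.7%, and cluster 6 held 30.2%. *Nfia* read 210.4 and 136.1 CPM in DF-like and 272.2 and 254.1 CPM in LP-like cells by 10x, and 125.8 and 110.3 against 188.7 and 172.7 CPM by ss2. The DF-like value was the lower in each of the 4 pools, and *Nfia* fell by 0.63 ± 0.13 on the log2 scale (edgeR, adjusted p = 0.00873). The adjusted p was 0.107 with the 10x sums alone, 0.230 with the ss2 sums alone and 0.0588 without the 10x E16.5 pool. The background was 13.2% of 13102 genes, 5.95% higher and 7.21% lower. *Zfp423*, *Zfp516* and *Zfp521* differed by -0.94 ± 0.41, -0.61 ± 0.26 and -0.41, and *Ctbp1*, *Ctbp2* and *Tle3* by 0.42 ± 0.15, 0.69 ± 0.33 and 0.48 ± 0.21, none past the threshold with edgeR. With DESeq2 *Ctbp1* passed as well, at 0.44 ± 0.14 (adjusted p = 0.017). Of the paralogs, *Mecom*, *Tle1*, *Nfib* and *Nfix* fell, by 8.57, 1.54, 1.37 and 0.83, so 3 of the NFI genes were lower in DF-like cells. By 10x at E16.5 *Mecom* had 0 UMIs in DF-like and 6 in LP-like cells. Its fitted size depends on the prior count where sums are near 0.

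*Ehmt1*, *Ctbp1*, *Med1* and *Zfp516* were present in every one of these classes on both platforms. By ss2 *Ehmt1* ranged from 51.2 CPM in LP-like cells of E16.5 to 175.2 in cluster 1, *Med1* from 59.6 in LP-like cells of E16.5 to 171.4 in cluster 1, and *Ctbp1* from 47.8 in BA-like cells to 197.98 in LM-like cells of E14.5. *Zfp516* ranged from 13.1 in BA-like cells to 49.8 in cluster 1. With edgeR these 4 genes passed in none of the 5 comparisons between classes or days outside BA-like cells. In alternative settings *Ctbp1* passed in DF-like against LP-like cells, as given above, and *Zfp516* in EM-like cells against progenitors with the 10x sums alone, at -0.85 ± 0.27 (adjusted p = 0.0345).

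**Figure D4:**
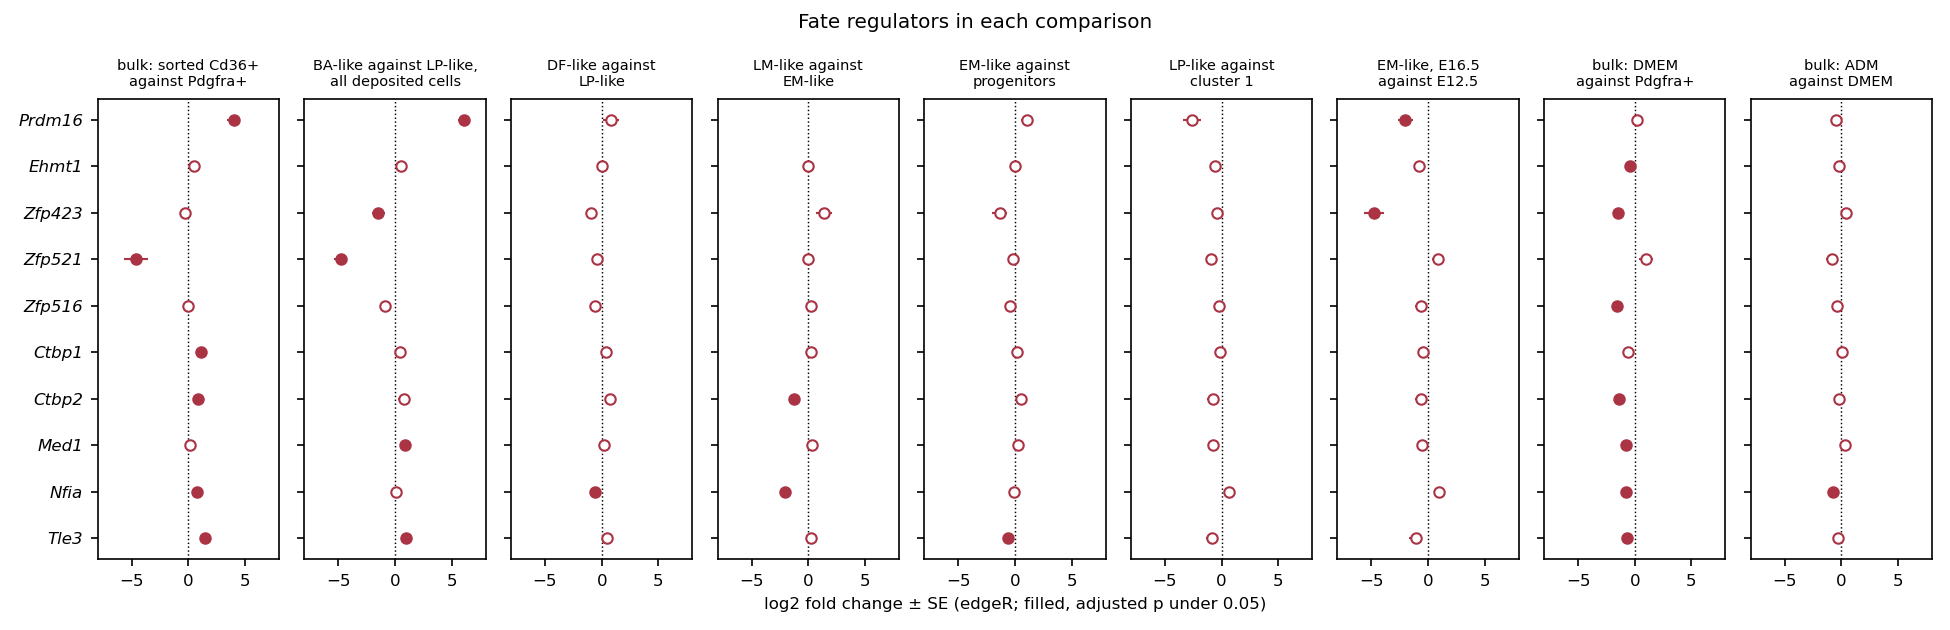
Log2 difference of each member, with its SE, in the bulk, class and day comparisons, 1 panel each, with filled points where the edgeR adjusted p was under 0.05. BA-like against DF-like cells has no panel. *Prdm16* is filled in the panels of Cd36+ cells, of BA-like against LP-like cells and of EM-like cells by day, and *Nfia* is filled below 0 in LM-like against EM-like cells.

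Cells grown in DMEM differed from the freshly sorted Pdgfra+ cells in 7 of 10 members, in a comparison where 53.9% of all genes passed. In DMEM *Zfp516* measured 7.06 to 11.4 CPM with a median of 9.56, against 22.2, 26.7, 24.3 and 33.1 CPM in the sorted cells. All DMEM values lay below all sorted values, and *Zfp516* fell by 1.52 ± 0.20 on the log2 scale (edgeR, adjusted p = 9.88e-06). *Ctbp2*, *Zfp423*, *Nfia*, *Med1* and *Tle3* fell by 1.35, 1.501, 0.78, 0.74 and 0.65, also without overlap, and these calls stood in 15 of 15 alternatives. *Ehmt1* fell by 0.42 ± 0.15 (adjusted p = 0.0256), with adjusted p-values of 0.0582 to 0.0724 without sorted Pdgfra+ library 1, 3 or 4 or DMEM library 6. In all 0 members rose and 7 fell, where 20.2% of 17586 genes rose and 33.6% fell (53.9% in all) and 47.4% of genes did not overlap (19% higher, 28.5% lower). The members' median was -0.69 and that of all genes -0.31. By the labels cultured cells were taken at E14.5 and sorted cells at E16.5, so culture and day cannot be told apart. The sorted Pdgfra+ libraries are also the reference of the Cd36+ comparison.

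Library make-up moved with this comparison. Mitochondrial genes took 7.25% to 14.9% of DMEM counts and 3.48% to 4.35% of sorted Pdgfra+ counts, the 100 highest genes took 45.6% to 49.5% against 26.6% to 29.6%, and 17103 to 18334 against 19746 to 20901 genes were detected. TMM factors were 0.773 to 0.878 in DMEM and 2.09 to 2.15 in the sorted cells. The 3 erythroid markers summed to 0.0513 to 0.507 CPM in DMEM and 156.3 to 280.5 CPM in the sorted cells, the 5 myeloid markers to 0.205 to 0.841 against 11.3 to 21.5 CPM, and the 9 BA markers to 4.09 to 27434 against 135.3 to 942 CPM. Their part in the members' differences was not tested.

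*Prdm16* measured 1.16 to 4.99 CPM in DMEM with a median of 3.22, which overlapped the sorted Pdgfra+ cells, and its difference was 0.20 ± 0.47 (adjusted p = 0.743). *Zfp521* measured 29.7 to 79.7 CPM with a median of 54.9 and differed by 0.97 ± 0.61 (adjusted p = 0.189). Among the partners 3 rose and 5 fell. Those that fell included *Irf4* at -2.62 and the corepressor complex genes *Kdm1a*, a histone demethylase, at -2.14 and *Rcor1*, its scaffold, at -1.74. Of the brown-selective genes 1 of 16 rose and none fell, of the white-selective genes 3 of 7 rose and 1 fell, and of the muscle genes 2 of 14 rose and 7 fell.

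ADM against DMEM asks what the adipogenic medium changed. Only *Nfia* passed among the members. It measured 25.4 to 34.3 CPM in ADM with a median of 26.5, and 31.1 to 62.4 CPM in DMEM with a median of 47.5. The groups overlapped, and *Nfia* fell by 0.72 ± 0.17 on the log2 scale, a fold of 0.607 (edgeR, adjusted p = 0.0203). The call was lost in 4 of 17 alternatives, among them without ADM library 1 or DMEM library 3, with adjusted p-values of 0.0510 to 0.0563. Of all 17586 genes 5.21% rose and 3.94% fell (9.16% in all), and no member was without overlap where 3.61% of genes were (1.25% higher, 2.37% lower). The members' median was -0.26 and that of all genes -0.02.

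*Prdm16* measured 0.336 to 3.99 CPM in ADM with a median of 2.47, from 1 to 18 counts per library, and its difference from DMEM was -0.48 ± 0.47 (adjusted p = 0.554). No ADM library reached the level of the sorted Cd36+ cells, a comparison across day and culture that was not tested. *Zfp521* measured 3.75 to 59.5 CPM in ADM with a median of 30.01, and its difference of -0.84 ± 0.54 did not pass (adjusted p = 0.340). The 6 libraries of each medium, which held both Thy1 sorts, lay in separate ranges of *Zfp521*: libraries 1 to 3 read 3.75 to 9.97 CPM in ADM and 29.7 to 37.6 in DMEM, and libraries 4 to 6 read 50.1 to 59.5 in ADM and 72.2 to 79.7 in DMEM. Within each of these ranges ADM was the lower without overlap, a description with no test, since no label gives the sort of a library, and the fit counts this split as spread. *Tle3* measured 3.66 to 8.81 CPM in ADM and 6.41 to 9.82 in DMEM, and *Zfp516* 4.83 to 9.30 and 7.06 to 11.4. Of 16 brown-selective genes 6 rose in ADM and 1 fell, with *Elovl3* at 13.5 ± 2.06, *Ucp1* at 12.7 ± 2.44 and *Cidea* at 8.50 ± 2.48 on the fitted log2 scale, values that depend on the prior count where DMEM libraries are near 0. *Ucp1* read 871.7, 822.9 and 845 CPM in ADM libraries 1 to 3 and had 0 counts in libraries 4 to 6, as in DMEM libraries 4 to 6. *Cidea* read 1948 to 2292 CPM in ADM libraries 1 to 3 and 0 in libraries 4 to 6, and *Elovl3* 709.9 to 810.6 against 1.68 to 3.94 CPM. The rise of these 3 genes thus lay in libraries 1 to 3, apart from the low *Elovl3* counts in the others. Mitochondrial genes took 17.6% to 19.98% of the counts of ADM libraries 1 to 3 and 7.82% to 8.44% of libraries 4 to 6, with TMM factors of 0.396 to 0.415 and 0.878 to 0.917. Their part in the members' values was not tested. *Irf4* had 0 counts in all 6 ADM libraries.

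Per kilobase of exon, the mean level in sorted Cd36+ cells was 12.3 CPM for *Nfia*, 7.65 for *Ctbp1*, 5.14 for *Ehmt1*, 4.64 for *Prdm16*, 4.57 for *Med1*, 3.104 for *Tle3*, 3.07 for *Ctbp2*, 3.05 for *Zfp516*, 1.30 for *Zfp423* and 0.157 for *Zfp521*. In this order *Ehmt1*, *Prdm16* and *Med1*, and again *Tle3*, *Ctbp2* and *Zfp516*, differed from their neighbours by less than the spread of the 2 libraries. In sorted Pdgfra+ cells *Nfia* was again the highest at 7.37 CPM per kilobase and *Prdm16* the lowest at 0.293.

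The genes whose log2(CPM + 1) values were most like those of *Prdm16* over the 18 bulk libraries, among 9693 genes with a mean of at least 5 CPM, included *Gcdh* (Pearson r = 0.984), *Dpy30* (0.980), *Mgme1* (0.975) and *Elof1* (0.975). Over 13 ss2 class sums they were *Zfp101* (0.941), *Baz1b* (0.934), *Nme7* (0.922), *Pde3b* (0.908) and *Dna2* (0.902), none of which is among the bulk genes named. For *Zfp521* the nearest gene was *Dbn1* (0.992) in bulk and *Plpp2* (0.936) in ss2. These correlations are descriptions, since libraries of 1 group and sums of 1 pool share their source.

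Exons of some members overlap another gene, and reads from the overlap cannot be assigned with certainty. *Prdm16* overlaps *B230104I21Rik* and *Nfia* overlaps *E130114P18Rik* on the opposite strand, which the unstranded bulk and ss2 libraries do not separate. *Ehmt1* overlaps *Gm37139* and *Ctbp2* overlaps *Fgfr2* on the same strand.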

How the data were processed

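The authors deposited 3 filtered tables. The 10x table holds raw UMI counts per gene and cell (Cell Ranger 3.0.1, Ensembl GRCm38.p6). The ss2 table holds expected counts per gene that the authors estimated with kallisto 0.44.0 and tximport, rounded here where tested. The bulk table holds raw counts per gene as deposited, its aligner and counter not given in the sources used here, and the submitters' processing notes name the build mm10.

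Cells with over 8% mitochondrial counts were left out (51 ss2 and 13 10x cells), which leaves 3852. Cells were clustered in Seurat 5.3.0 (2000 variable genes, 30 components, resolution 0.8) without 31 genes, namely the members, their partners, their paralogs and YFP, and named from marker lists (at least 3 markers found). Doublets were called with Scrublet in scanpy 1.11.5, which marked 8, 8 and 7 cells of the 10x pools, all kept. Counts were summed per class and pool (platform and day, at least 20 cells) over 15147 shared genes. Cells are not replicates, and the sums were the units of the tests. Each platform and day had a single pool, so these p-values do not measure the spread between embryos. Sums and bulk libraries were tested with edgeR 4.0.16 (filterByExpr, TMM, quasi-likelihood test, Benjamini-Hochberg adjustment over all genes tested, threshold 0.05), and SE was derived from the F statistic. The class fits had 2 to 5 residual degrees of freedom and the bulk fit 14, with the spread borrowed across genes. Levels are CPM, and 10x intervals are 95% exact Poisson intervals that cover counting error only. DESeq2 1.42.0, RLE scaling, other filters, resolutions and left-out pools or libraries were alternatives. Each fit was tested on simulated counts, except the joint fits of BA-like cells at E16.5.

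The bulk column names do not give the Thy1 sign, so the planned comparisons that split by Thy1 were not run. They were replaced by comparisons with both sorts together, chosen after the column names were seen. The members and lists were chosen with earlier results of these data known. All 10 members are named in every comparison, and of the other lists at most 4 genes past the threshold with the largest difference, beside *Nfia* relatives, and beside *Hdac1*, *Nfib* and *Nfix* in BA-like cells, which were named after their values were seen. R 4.3.3 and Python 3.11.15 were used. 1 gene among those most like *Prdm16* in the bulk libraries is not reported here.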

Additional observations from a re-analysis of the deposited data

Results flagged for a closer look

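*Ehmt1* in sorted Pdgfra+ library 2 stood apart from the other libraries of its group, at 24.8 CPM against 31.8 to 33.1 CPM, with a gap of 0.842 of the group's range. Chance alone sets apart about 1 in 20 groups. The *Prdm16* levels of DF-like and LP-like cells changed order between days on both platforms. At E14.5 *Prdm16* read 2.98 CPM in DF-like against 3.33 in LP-like cells by 10x and 12.3 against 12.7 by ss2, and at E16.5 it read 4.39 against 0 and 5.26 against 1.52. The 10x values rest on 0 to 7 UMIs, so no order was detectable on that platform, and the difference between days was not tested. *Tle3* in LM-like against EM-like cells changed order by ss2, from 21.1 against 28.01 CPM at E14.5 to 32.7 against 15.3 CPM at E16.5. By 10x it read 4.89 against 11.2 CPM at E14.5 and 26.99 against 25.2 CPM at E16.5. These 10x LM-like values are at or below the limit of 3 counts, so no order was detectable there. The *Tle3* difference between days was not tested either.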

How the results depend on the processing

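Of the values that the 28 member differences past the threshold took under the alternatives, 78.6% stayed past it in the same direction, 21.4% did not, and none changed sign. Of 859 values of the 71 other differences 15 passed, and among these were *Prdm16* in LP-like cells against cluster 1 without the ss2 E14.5 pool, without the ss2 E16.5 pool and at resolution 0.4. The comparisons split by Thy1 sort were not run, since the bulk column names do not give the sort. The share of genes past the threshold, as a percentage of the genes tested, moved more. ADM against DMEM gave 9.16% (5.21% higher, 3.94% lower), with DESeq2 18.5% (13.1% and 5.38%), with RLE scaling 7.53% higher and 3.18% lower, and with only the groups compared 3.9%. Without each library it ranged from 3.08% to 15.9%, at or below 4.9% without ADM library 1, 2 or 3 or DMEM library 2, 3, 4, 5 or 6 and at 15.9% and 14.2% without ADM library 4 or 5. Cd36+ against Pdgfra+ gave 31.8% and 11.9% to 27.6% without each library (13% and 11.9% without Cd36+ library 1 or 2), and DMEM against Pdgfra+ 53.9% and 46.4% to 51.5%. DF-like against LP-like gave 13.2% (10x sums alone 4.46%, ss2 alone 0.99985%), and 7.3% to 12.46% without each pool, with 7.3% and 7.77% without the 10x E14.5 or E16.5 pool. LM-like against EM-like gave 26.1% (10x alone 9.92%, ss2 alone 13.5%) and 15.9% to 32%, with 15.9% and 16.1% without the ss2 E14.5 or E16.5 pool. EM-like against progenitors gave 26.9% (13.5% and 0.793%) and 14.9% to 34%, with 14.9% without the 10x E14.5 pool and 16.4% and 16.8% without the ss2 E14.5 or E16.5 pool. LP-like against cluster 1 gave 5.7% (4.79% higher, 0.912% lower), with DESeq2 10.5% (7.47% and 3.05%), with 10x alone 1.22% and with ss2 alone 0.292%. Without each pool it ranged from 0% to 10.9%, with 0% without the ss2 E12.5 pool, 10.9% without the ss2 E14.5 pool, and 2.74%, 2.99% and 2% without the 10x pools by day. EM-like cells by day gave 10.3%, with DESeq2 6.35%, and 0.624% to 13.1% without each pool (0.624% without ss2 E12.5, 1.48% without ss2 E16.5). BA-like cells gave 49.9% against LP-like and 45% against DF-like cells, with DESeq2 31.4% and 27.5%. The cause of these changes was not tested.

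The replicate block was fitted although same-numbered libraries did not deviate together (correlations of -0.0107 to -0.000926 in the media, 0.0319 in the sorted cells). With the replicate block ADM against DMEM gave 2.51% and *Nfia* had an adjusted p of 0.0563, and for Cd36+ against Pdgfra+ *Ctbp1*, *Ctbp2* and *Nfia* had 0.0710, 0.0877 and 0.0608. RLE scaling moved the median of all genes from 0.10 to -0.14 in BA-like against LP-like cells. In BA-like against DF-like cells it moved from 0.07 to -0.07. The median moved by 0.1 or more also in LM-like against EM-like cells (0.07 to -0.04), LP-like cells against cluster 1 (0.11 to -0.009) and EM-like cells by day (0.004 to -0.11). The 10x depth limits the lowest members, with the limit of 3 counts at 1.43 to 40.5 CPM per sum of the main classes.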

Other observations

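Within each medium the bulk libraries fell into separate ranges of *Thy1*, *Pdgfra*, *Zfp521* and *Prdm16*, although their column names do not say which Thy1 sort each came from. In ADM, libraries 1 to 6 read 0.992, 1.43, 2.38, 32.3, 25.6 and 28.6 CPM of *Thy1*, 3.75, 9.97, 5.94, 59.5, 54.3 and 50.1 TMM-scaled CPM of *Zfp521*, and 3.25, 3.99, 3.48, 0.731, 1.69 and 0.336 of *Prdm16*. In DMEM, libraries 1 to 6 read 5.97, 8.06, 9.03, 59.1, 64.8 and 54.7 CPM of *Thy1*, 29.7, 32.3, 37.6, 72.2, 77.3 and 79.7 TMM-scaled CPM of *Zfp521*, and 4.75, 4.62, 4.99, 1.16, 1.43 and 1.82 of *Prdm16*. *Cd36* read 3970, 3975, 4809, 102.2, 129.3 and 116.2 CPM in the ADM libraries and 456.7, 236.1, 273.5, 0.481, 0.381 and 0.133 CPM in the DMEM libraries. Sorted Pdgfra+ libraries 1 to 4 read 109.3, 5.87, 86.2 and 4.77 CPM of *Thy1*. The *Prdm16* values of the ADM libraries rest on 1 to 18 counts each. These values were not compared, since no label assigns the libraries to a sort.

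Neuron-like cells held the highest *Zfp423* level of any class on both platforms, at 43.6 and 57.3 CPM by 10x and 45.3 and 62.6 CPM by ss2 at E12.5 and E14.5, a description with no test.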
